A study of Homo sapiens with 12 samples.

Results

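The 10 long noncoding RNAs described here are NEAT1, MALAT1, MEG3, H19, MIR31HG, MIR22HG, GAS5, SNHG1, PVT1 and LINC-PINT, taken by symbol from a gene count table of 57500 genes. They were measured in MRC5 cells, a line of human embryonic lung fibroblasts, in 12 RNA-sequencing libraries that fall into 4 groups of 3. Prol libraries came from proliferating cells and Sen(IR) libraries from cells collected 10 to 12 days after X-rays of 20 Gy, which left them senescent. In Sen(IR)+UK5099 the irradiated cells were also kept in 100 uM UK5099, an inhibitor of the mitochondrial pyruvate carrier, and in Sen(IR)+CTPI2 in CTPI2, an inhibitor of the mitochondrial citrate carrier. Per the study's methods, the inhibitors were added 1 day after irradiation. CTPI2 was used in the study at 15 or 30 uM and the methods do not say which of these was sequenced, so the doses of the inhibitors are not matched. All 4 groups share a single cell line. The study describes its RNA sequencing as 3 independent experiments or conditions, while the labels do not say which culture a library came from, so p-values measure the spread between these libraries.

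Long noncoding RNAs are transcripts that carry no known protein product and act as RNA, as hosts of small RNAs, or through their own transcription. NEAT1 is the RNA scaffold of paraspeckles, nuclear bodies that hold RNA-binding proteins, and MALAT1 is concentrated in nuclear speckles, where splicing factors are stored. MEG3 and H19 are imprinted RNAs expressed from the maternal chromosome, GAS5 and SNHG1 carry small nucleolar RNAs in their introns, and MIR22HG and MIR31HG are the host transcripts of miR-22 and miR-31. PVT1 lies next to the oncogene MYC, and LINC-PINT is a p53-induced RNA. MIR31HG, GAS5, MEG3 and others have been studied as regulators of growth arrest and senescence.

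Levels are given as CPM, the counts relative to the TMM-scaled size of the library. A member was called changed when its Benjamini-Hochberg adjusted p in edgeR's quasi-likelihood test, taken over the 16251 genes tested, was under 0.05 and its absolute log2 fold change was over 0.5. Library totals ran from 20597736 to 28245693 counts. The arrest was visible in the same libraries. CDKN1A, which encodes the cell-cycle inhibitor p21, was 1.74 higher on the log2 scale in Sen(IR) than in Prol. The proliferation gene MKI67 fell by 4.42. The irradiated groups were not equal in these checks. MKI67 was at 10.96 CPM in Sen(IR), 12.44 with CTPI2 and 0.9489 with UK5099. LMNB1, also taken as an arrest check, was at 8.235, 7.443 and 2.51 CPM in that order, and CDKN1A at 1054, 1088 and 1097 CPM. Of these 3 genes, 2 were called lower with UK5099 than in Sen(IR) and 0 higher, and 0 were called with CTPI2. Summed over 10 fibroblast markers, the level was 15590 to 16730 CPM with UK5099, against 26150 to 27310 for Sen(IR), 25440 to 29150 for Prol and 23320 to 25430 for CTPI2. With UK5099, 5 of the 10 were called lower than in Sen(IR) and 0 higher, beside 12.1% and 8.76% of all genes. The collagen genes weigh most in the sum. From Sen(IR) to UK5099, COL1A1 went from 4710 to 1600 CPM, COL1A2 from 7315 to 3516 and COL3A1 from 2750 to 818.5. Beyond the collagens, PDGFRA went from 711 to 368 CPM and THY1 from 366 to 216. FN1 (5835 and 4939 CPM) and VIM (3060 and 2778) fell less. DCN (1362 and 1361 CPM), LUM (356 and 370) and PDGFRB (156 and 162) were not lower beyond their spread. No fibroblast marker was at 0, and summed markers of epithelial, endothelial and leukocyte cells stayed at or under 1.36 CPM in every library. The mitochondrial share of counts was also highest with UK5099, at 3.81 to 4.23%, against 2.78 to 3.21% for Sen(IR), 2.39 to 3.28% for CTPI2 and 2.36 to 2.68% for Prol. The part of these shifts in the UK5099 results below was not tested, and in bulk libraries fewer cells of a type and less RNA per cell cannot be told apart.

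Several members are read through the sequences they carry. MIR22HG, MIR31HG, LINC-PINT, MEG3 and H19 span microRNAs, whose mature forms were not measured in these libraries, so the values below are levels of the host RNA alone. PVT1 shares exon bases with the microRNA genes MIR1207 and MIR1206 and was not searched for mature sequences. The mature sequences below are shown because they identify the microRNA product of each host. They are taken from RefSeq on GRCh38.p14 and run 5′ to 3′, with the seed (bases 2 to 8) in capitals. The hairpins of miR-29a and miR-29b both lie within LINC-PINT, at chr7:130876748-130876769 and chr7:130877467-130877489 for the mature forms, and share the seed AGCACCA. miR-22-3p lies in an exon of MIR22HG at chr17:1713914-1713935 and miR-770-5p in an exon of MEG3 at chr14:100852409-100852431, in some transcripts of each. miR-31-5p lies outside the exons of MIR31HG, at chr9:21512158-21512178.
hsa-miR-22-3p: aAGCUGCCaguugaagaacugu
hsa-miR-31-5p: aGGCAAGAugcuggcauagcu
hsa-miR-29a-3p: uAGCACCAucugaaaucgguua
hsa-miR-29b-3p: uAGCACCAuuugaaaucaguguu
hsa-miR-770-5p: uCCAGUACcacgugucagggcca

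Promoter windows of 300 bases held 250 bases before each start and 50 from the start on. Windows were taken from RefSeq on GRCh38.p14 for 8 of the members, without NEAT1 and PVT1. They were searched on both strands for the E-box CACGTG, the GC-box GGGCGG, the TATA-box TATAAA, the CCAAT-box CCAAT, the AP-1 site TGACTCA, the CRE site TGACGTCA and the ETS site CCGGAAG, none of which contains another. The 3 windows below are shown, in capitals where a motif matched, for MALAT1 and MEG3, which were called higher in senescence, and for SNHG1, which was called lower. MALAT1 has 2 windows: the first held 5 GGGCGG matches and no TATAAA, and the second, shown, held TATAAA 30 bases before the start at chr11:65498795-65499094 on the plus strand. MEG3 has 3 overlapping windows with the same 3 matches, TATAAA lying 18, 28 or 42 bases before the start. The first, shown, at chr14:100825858-100826157, plus strand, held TGACGTCA 50 and CCAAT 93 bases before its start. The SNHG1 window at chr11:62855836-62856135, minus strand, held GGGCGG 64 bases before the start and TATAAA 39 bases after it. TATAAA was found in 11.5% of all 35116 promoter windows, CCAAT in 34.6%, GGGCGG in 45.0% and TGACGTCA in 1.85%, and the motifs without a match in the windows shown in 7.26% (E-box), 4.95% (AP-1) and 10.3% (ETS), so these matches describe letters only.
MALAT1 promoter, second window: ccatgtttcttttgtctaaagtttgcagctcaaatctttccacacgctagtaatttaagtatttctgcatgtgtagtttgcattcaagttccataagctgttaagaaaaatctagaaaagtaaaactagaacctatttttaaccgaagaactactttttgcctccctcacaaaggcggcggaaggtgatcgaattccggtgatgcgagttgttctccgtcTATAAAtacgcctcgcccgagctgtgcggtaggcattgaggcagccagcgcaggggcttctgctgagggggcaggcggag
MEG3 promoter: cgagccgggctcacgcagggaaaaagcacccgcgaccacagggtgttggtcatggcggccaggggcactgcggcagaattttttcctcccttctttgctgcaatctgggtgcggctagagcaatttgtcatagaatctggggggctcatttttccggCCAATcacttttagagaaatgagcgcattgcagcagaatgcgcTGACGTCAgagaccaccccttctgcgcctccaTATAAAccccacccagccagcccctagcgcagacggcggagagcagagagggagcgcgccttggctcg
SNHG1 promoter: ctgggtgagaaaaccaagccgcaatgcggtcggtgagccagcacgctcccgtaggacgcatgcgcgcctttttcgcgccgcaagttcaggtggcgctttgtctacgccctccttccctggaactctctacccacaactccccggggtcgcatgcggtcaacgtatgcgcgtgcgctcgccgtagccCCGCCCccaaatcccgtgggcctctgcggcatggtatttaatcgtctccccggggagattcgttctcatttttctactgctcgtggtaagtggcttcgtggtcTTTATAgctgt

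Between proliferating and senescent cells, 5 of the 9 members tested were called higher in Sen(IR) (NEAT1, MEG3, LINC-PINT, MIR31HG and MALAT1), against 24.8% of all genes tested, and SNHG1 was called lower, against 22.4%. GAS5 and MIR22HG were lower by less than the fold limit, and PVT1 differed by less than its error. The median log2 fold change of the 9 was 0.72, beside 0.01 over all genes and 0.31 over the 1841 other long noncoding RNAs tested, of which 28.7% were called higher and 12.4% lower. H19 was too low to test.

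NEAT1 (ENSG00000245532) spans chr11:65422774-65445540 on the plus strand (GRCh38, GENCODE v44). Its level was 235, 214 and 226 CPM in the Prol libraries and 800, 800 and 792 CPM in the Sen(IR) libraries. With UK5099 it was 1523, 1679 and 1886 CPM, and with CTPI2 882, 752 and 496 CPM. Every UK5099 library lay above every other library and every Prol library below, while the CTPI2 libraries ran from under to over those of Sen(IR). The fitted log2 fold change was 1.82 ± 0.125 (SE, n = 3 per group) for Sen(IR) against Prol, edgeR adjusted p = 1.26e-11. UK5099 added a further 1.09 ± 0.121 over Sen(IR), adjusted p = 1.51e-07, a 2.13-fold higher level. By CPM, NEAT1 ranked 834th of 16251 genes in Prol, 162nd in Sen(IR), 183rd with CTPI2 and 36th with UK5099. The longer NEAT1 isoform ends without a poly(A) tail. The count labels read mRNA, but how RNA was selected is not stated in the sources used here. The isoforms behind these counts are therefore not known.

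MALAT1 (ENSG00000251562, chr11:65497640-65508073, plus strand), the neighbour of NEAT1, followed the same order with smaller steps. It stood at 164, 117 and 131 CPM in Prol and at 233, 247 and 197 CPM in Sen(IR). With UK5099 the libraries held 354, 338 and 341 CPM, and with CTPI2 224, 223 and 172 CPM. The Prol libraries were the lowest and the UK5099 libraries the highest, with no overlap, and Sen(IR) and CTPI2 overlapped. Sen(IR) was 0.72 ± 0.102 higher than Prol on the log2 scale (adjusted p = 1.78e-06) and UK5099 0.61 ± 0.101 higher than Sen(IR) (adjusted p = 3.3e-05). Of its exon bases, 83.7% are shared with another gene of GENCODE v44 but only 7.30% with genes of the count table. Whether counting used strand is not stated, so reads of MALAT1 and of an antisense transcript cannot be told apart.

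MEG3 (ENSG00000214548, chr14:100779410-100861031, plus strand) was at 428, 354 and 339 CPM in Prol and at 928, 881 and 802 CPM in Sen(IR). It was at 1098, 1047 and 1240 CPM with UK5099 and at 892, 838 and 561 CPM with CTPI2. Prol was again lowest without overlap, and the UK5099 libraries were all above those of Sen(IR), but by a smaller step. Sen(IR) exceeded Prol by 1.22 ± 0.117 on the log2 scale (adjusted p = 3.85e-09). UK5099 exceeded Sen(IR) by 0.37, with a 95% interval of 0.14 to 0.61 and an adjusted p of 0.0105 that passed while the fold limit was not reached. Per kilobase of annotated exon, MEG3 was at 16.1 CPM in Prol and 37.5 in Sen(IR). On that scale NEAT1 was at 9.89 and 35.0, and MALAT1 at 13.2 and 21.6. The lengths join the exons of all annotated isoforms. Which isoforms were present is not known, so these values do not rank the RNAs.

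LINC-PINT (ENSG00000231721, chr7:130791264-131110176, minus strand) was a low RNA, at 4.26, 3.05 and 3.79 CPM in Prol and 8.71, 7.34 and 9.31 CPM in Sen(IR). It was at 7.98, 9.41 and 9.72 CPM with UK5099 and at 8.41, 7.83 and 7.96 CPM with CTPI2. All 9 irradiated libraries lay above the 3 Prol libraries, and the irradiated groups overlapped. The difference of Sen(IR) from Prol was 1.19 ± 0.141 (log2, adjusted p = 1.13e-07). Against Sen(IR), UK5099 differed by 0.10 (95% interval -0.16 to 0.36) and CTPI2 by -0.07 (-0.33 to 0.20), with adjusted p of 0.556 and 0.964.

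MIR31HG (ENSG00000171889, chr9:21380073-21559891, minus strand) rested on few reads: 17, 14 and 14 counts in Prol and 25, 17 and 28 counts in Sen(IR). The other groups held 23, 29 and 34 counts with UK5099 and 28, 28 and 32 counts with CTPI2. On the CPM scale the means were 0.615 ± 0.103 (SD, n = 3) in Prol, 1.10 ± 0.284 in Sen(IR), 1.11 ± 0.186 with UK5099 and 1.26 ± 0.118 with CTPI2, with Prol below the others in every library. Sen(IR) was called higher than Prol by 0.83 ± 0.317 on the log2 scale, adjusted p = 0.024. That call was lost without Prol replicate 3 (0.72, adjusted p = 0.0801), without Sen(IR) replicate 1 (0.82, 0.052), without Sen(IR) replicate 3 (0.65, 0.114) and without the filter on low counts (0.84, 0.0518). Its exons share 12.4% of their bases with interferon genes and pseudogenes on the opposite strand.

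SNHG1 (ENSG00000255717, chr11:62851978-62855953, minus strand) was the member called lower. Its level was 92.3, 72.4 and 96.6 CPM in Prol and 26.7, 25.9 and 23.5 CPM in Sen(IR). It was 21.7, 21.9 and 21.8 CPM with UK5099 and 26.5, 23.8 and 20.3 CPM with CTPI2. The 3 Prol libraries stood far above the 9 irradiated libraries. SNHG1 fell by 1.78 on the log2 scale in Sen(IR) (SE 0.0966, adjusted p = 2.12e-13), and relative to Prol its level was 0.250-fold with UK5099 and 0.270-fold with CTPI2. Against Sen(IR), UK5099 differed by -0.22 (95% interval -0.43 to -0.01, adjusted p = 0.0887). The small nucleolar RNAs in the locus take 15.4% of its annotated exon bases.

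GAS5 (ENSG00000234741, chr1:173858559-173868882, minus strand), the other snoRNA host, stood at 122, 104 and 137 CPM in Prol and at 85.7, 90.8 and 88.4 CPM in Sen(IR). It stood at 105, 117 and 109 CPM with UK5099 and at 89.4, 89.6 and 87.3 CPM with CTPI2. Sen(IR) and CTPI2 libraries were the low ones, and UK5099 libraries overlapped with Prol. The log2 difference was -0.46 ± 0.0724 for Sen(IR) against Prol (adjusted p = 7.48e-06) and 0.32 ± 0.0724 for UK5099 against Sen(IR) (adjusted p = 0.000943). Neither reached the fold limit, except that without Prol replicate 2 the first became -0.56 and was called. UK5099 against Prol was -0.14 (95% interval -0.28 to 0.01).

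MIR22HG (ENSG00000186594, chr17:1711447-1717174, minus strand) was at 41.0, 38.1 and 50.1 CPM in Prol and at 35.2, 33.8 and 31.7 CPM in Sen(IR). With UK5099 it was at 36.4, 36.3 and 40.9 CPM and with CTPI2 at 36.9, 30.5 and 28.2 CPM. Prol was above Sen(IR) and CTPI2 without overlap, and the UK5099 libraries overlapped with Prol. The log2 difference of Sen(IR) from Prol was -0.36 ± 0.0972 (adjusted p = 0.00232), short of the fold limit. Against Prol, CTPI2 gave -0.44 (adjusted p = 0.000396) and UK5099 -0.19 (adjusted p = 0.0811), both short of it too.

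PVT1 (ENSG00000249859, chromosome 8, 127794526 to 128187101, plus strand) was at 8.44, 7.03 and 8.58 CPM in Prol and at 7.42, 8.81 and 6.81 CPM in Sen(IR), overlapping ranges. Its UK5099 libraries held 6.29, 6.19 and 5.11 CPM and its CTPI2 libraries 10.3, 8.74 and 8.13 CPM. The UK5099 libraries were the lowest of the 12. The difference of Sen(IR) from Prol was -0.06 (95% interval -0.34 to 0.21, adjusted p = 0.684), and the sign turned, to 0.06, with upper-quartile scaling. MYC, 51574 bases away, was called lower in Sen(IR), where its level was 23.7 CPM against 42.6 CPM for Prol (log2 difference -0.85).

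H19 (ENSG00000130600, chr11:1995166-2004552, minus strand) was at or under the counting floor in every library. It had 0, 0 and 0 counts in Prol, 2, 2 and 0 in Sen(IR), 0, 0 and 1 with UK5099 and 0, 1 and 1 with CTPI2. A floor of 3 counts corresponds to 0.117 to 0.141 CPM in these groups, which covers counting error only. No fold was computed, and a difference was not detectable at this depth. IGF2, the next protein-coding gene on one side at 124559 bases, was measured at 56.7 CPM in Prol and 10.3 CPM in Sen(IR), with a log2 difference of -2.46, and at 4.33 CPM with UK5099.

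**Figure D1:**
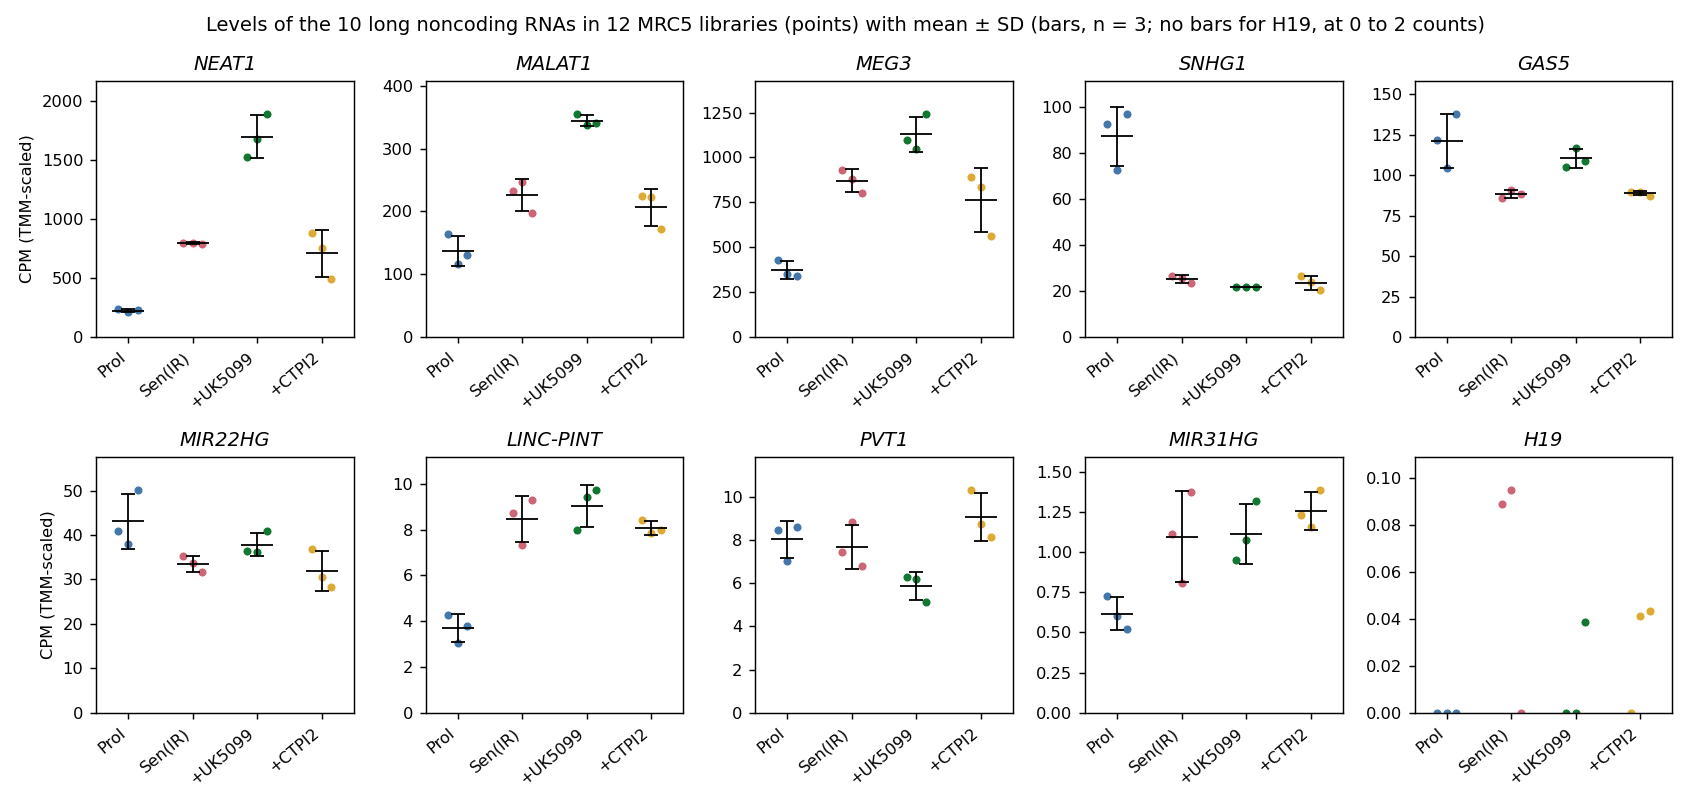
Level of each of the 10 long noncoding RNAs (vertical axis, CPM, from 0, a separate scale per panel) in the 12 libraries by group, with the mean and SD of 3 libraries as bars. NEAT1 stepped from 235, 214 and 226 CPM in Prol to 1523, 1679 and 1886 CPM with UK5099, SNHG1 dropped in all irradiated groups, and H19 has no bars since it held 0 to 2 counts.

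The inhibitors asked what blocking the entry of pyruvate into mitochondria, or the exit of citrate from them, does in cells that are already irradiated. With UK5099, NEAT1 and MALAT1 were called higher than in Sen(IR), 2 of 9 members against 8.76% of all genes, and 0 were called lower against 12.1%. The median of the 9 was 0.17, beside 0.01 over all genes and 0.05 over the other long noncoding RNAs. MEG3 and GAS5 (both higher) and PVT1 (lower, -0.39, adjusted p = 0.0235) passed the adjusted p but not the fold limit. SNHG1, MIR22HG, LINC-PINT and MIR31HG did not pass it. At a stricter fold limit of 1, NEAT1 alone remained.

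With CTPI2, 0 members were called higher and 0 lower than in Sen(IR) by edgeR or by DESeq2, and 0 had an unadjusted p under 0.05. Over all genes 0.0185% were called higher and 0.148% lower. For NEAT1 the difference was -0.17 (95% interval -0.42 to 0.08), for MALAT1 -0.13 (-0.34 to 0.08), for MEG3 -0.19 (-0.43 to 0.05) and for GAS5 0.01 (-0.14 to 0.16). CTPI2 replicate 3 was the lowest CTPI2 library for NEAT1, MALAT1, MEG3, MIR22HG, GAS5, SNHG1 and PVT1. It also lay farther from its group mates across genes, with an SD of log2 differences of 0.124 against 0.0816 and 0.0932. The Prol libraries were at 0.1245, 0.1553 and 0.1331 by this measure, so that distance was not unusual in the series. Without CTPI2 replicate 3, NEAT1 differed by 0.04, MALAT1 by -0.01 and MEG3 by -0.01.

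**Figure D2:**
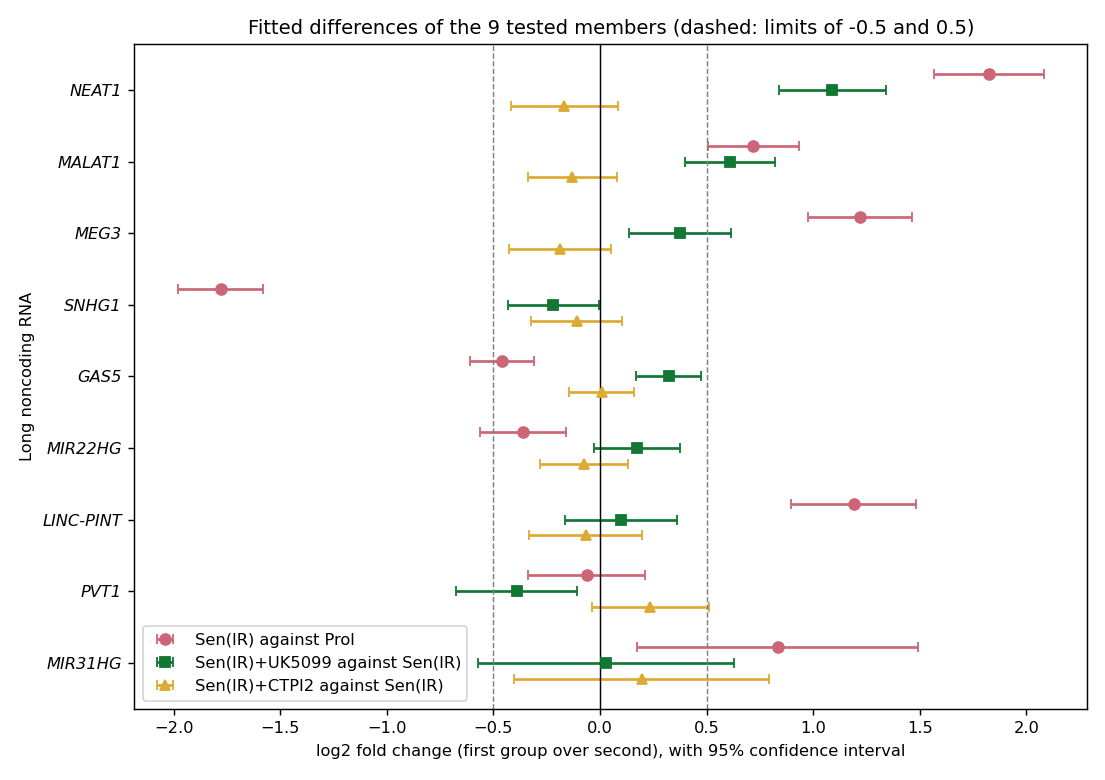
Fitted log2 fold change (horizontal axis) with its 95% confidence interval for the 9 tested members (vertical axis) in Sen(IR) against Prol, Sen(IR)+UK5099 against Sen(IR) and Sen(IR)+CTPI2 against Sen(IR), with dashed lines at the fold limit of 0.5 either way. NEAT1 lies beyond the limit at 1.82 in the first comparison and 1.09 in the second, and the CTPI2 intervals all include 0.

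Set against each other, the inhibitor groups differed in 4 members. NEAT1 (1.26, adjusted p = 1.95e-08), MALAT1 (0.74, 3.14e-06) and MEG3 (0.56, 0.000376) were called higher with UK5099 than with CTPI2, 3 members against 8.2% of all genes. PVT1 was called lower, 1 member against 11.7%, by 0.63 on the log2 scale (SE 0.133, adjusted p = 0.000556). The MEG3 call was lost without CTPI2 replicate 3 (0.38) and without UK5099 replicate 3 (0.49), where it fell short of the fold limit. GAS5 was 0.31 higher with UK5099 (adjusted p = 0.00119), under the limit. The doses were not matched, so these values describe the groups as sequenced.

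Both inhibitor groups remained apart from proliferating cells, which are also the control of the first comparison. With UK5099, 5 members were above Prol against 26.9% of genes and 1 below against 26.2%, with NEAT1 at 2.91, MEG3 at 1.60, MALAT1 at 1.33 and LINC-PINT at 1.29 on the log2 scale. With CTPI2, 5 were above against 24.8% and 1 below against 21.9%, with NEAT1 at 1.66, LINC-PINT at 1.12, MEG3 and MIR31HG at 1.03 and MALAT1 at 0.59. The MIR31HG call with UK5099 (0.86, adjusted p = 0.016) was lost without Prol replicate 3 (0.75, 0.0603) or UK5099 replicate 3 (0.72, 0.0686). Without Prol replicate 2, MALAT1 with CTPI2 fell under the fold limit (0.49), and GAS5 (-0.55) and MIR22HG (-0.52) passed it. MIR22HG with CTPI2 was also called without CTPI2 replicate 1 (-0.55), and PVT1 with UK5099, at -0.45 in the full fit, without Prol replicate 2 (-0.54) or UK5099 replicate 1 (-0.51).

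Ratios of raw counts within a library do not depend on scaling. NEAT1 per MALAT1 was lowest in Prol (1.44 to 1.83), higher in Sen(IR) (3.24 to 4.02) and CTPI2 (2.88 to 3.94), and highest with UK5099 (4.30 to 5.53), so the counts of these RNAs rose unequally. How RNA was selected is not stated, and its part in this ratio was not tested. NEAT1 per MEG3 gave the same order, with 0.550 to 0.667 for Prol, 0.863 to 0.987 for Sen(IR), 0.883 to 0.989 for CTPI2 and 1.39 to 1.60 for UK5099. GAS5 per SNHG1 was 4.85 to 5.33 with UK5099, 3.21 to 3.77 for Sen(IR), 3.37 to 4.31 for CTPI2 and 1.32 to 1.44 for Prol. For each ratio, Sen(IR) against Prol and UK5099 against Sen(IR) did not overlap and gave p = 0.1 in a two-sided exact permutation test, the smallest p that 3 against 3 allows. CTPI2 against Sen(IR) overlapped in all of them (exact p = 0.7, 0.9 and 0.4). NEAT1, MALAT1 and MEG3 together took 0.313 to 0.366% of all counts with UK5099, against 0.177 to 0.195% for Sen(IR), 0.123 to 0.202% for CTPI2 and 0.0657 to 0.0797% for Prol.

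**Figure D3:**
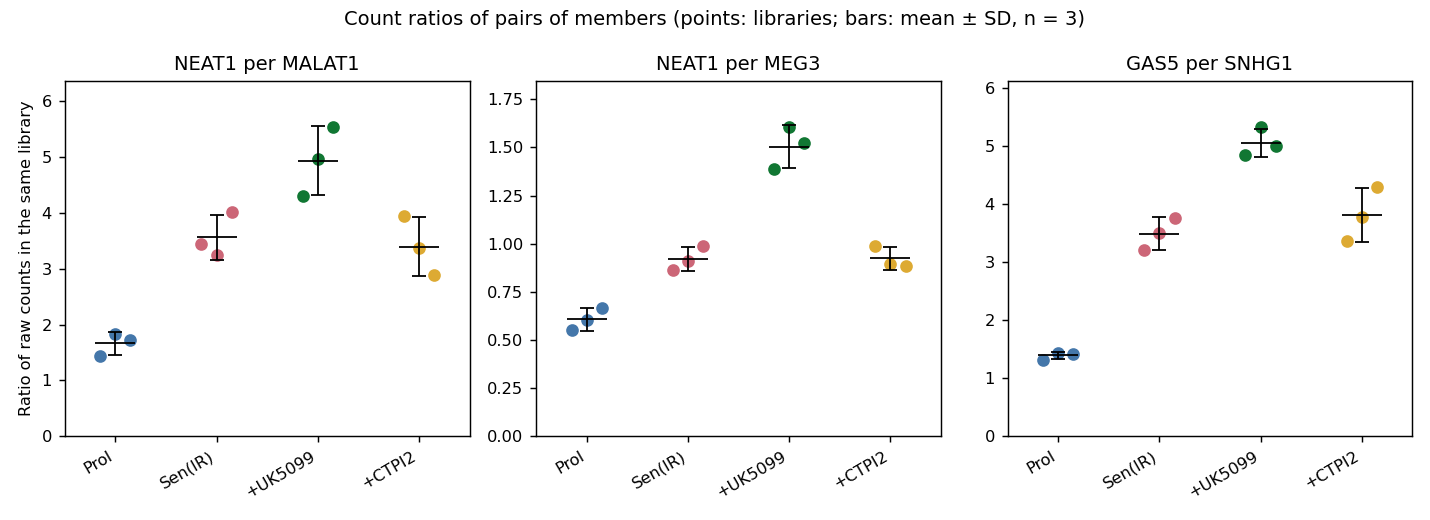
Ratio of raw counts of paired members in the same library (vertical axis, from 0) by group, with points for libraries and bars for the mean and SD of 3. NEAT1 per MALAT1 ran from 1.44 to 1.83 in Prol and from 4.30 to 5.53 with UK5099, and CTPI2 overlapped with Sen(IR) in every panel.

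Across the 12 libraries, the log2 levels of NEAT1 correlated with those of MEG3 (Pearson r = 0.98) and MALAT1 (0.96), and those of SNHG1 and LINC-PINT ran opposite (-0.93). These values follow differences between the 4 groups, of which Sen(IR) and CTPI2 overlapped in every tested member. The values share libraries and scaling, and are given without a test. By the same measure, the genes most like NEAT1 were ULK1 (r = 0.991) and GSN (0.990), and those most like MALAT1 were GATAD1 (0.981) and ENGASE (0.978). MEG3 was closest to GOLGA8A and LMBR1L (both 0.984), SNHG1 to NOL11 and TUBB4B (both 0.996), LINC-PINT to TMEM38A (0.987) and HIST1H4E (0.982), and PVT1 to GIPC1 (0.917). Of 12129 genes compared, 2326 passed r = 0.9 with SNHG1, 1277 with LINC-PINT, 1201 with NEAT1, 959 with MEG3, 470 with MALAT1, 91 with GAS5, 5 with MIR22HG and 1 with PVT1. For MIR31HG, 30 of 12130 did.

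Most genes of the paraspeckle proteins, the partners of NEAT1, were lower in senescence. Of 14 listed, 12 were called lower in Sen(IR) than in Prol, where 22.4% of all genes were, and 0 higher, where 24.8% were, with a median of -0.82 beside 0.01 over all genes. DAZAP1 was at 136 ± 5.56 CPM (SD) in proliferating and 47.9 ± 0.846 CPM in senescent cells (-1.51), and HNRNPH3 (-1.54) fell alongside it. SFPQ and NONO, core proteins of the paraspeckle, fell by 1.49 and 0.61. PSPC1 was at 50.1 CPM in Prol and 50.8 CPM in Sen(IR). With UK5099, where NEAT1 was higher still, 0 of the 14 were called in either direction against Sen(IR). Of all genes, 8.76% were called higher and 12.1% lower in that comparison. The median of the 14 was -0.08, beside 0.01 over all genes.

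Nuclear speckle and splicing factors gave 9 of 17 called lower and 0 higher in Sen(IR), beside 22.4% and 24.8% of all genes, with a median of -0.52, led by the SR proteins SRSF1 (-1.56), SRSF7 (-1.46) and SRSF3 (-1.46). With UK5099 against Sen(IR), 0 of the 17 were called, beside 8.76% higher and 12.1% lower of all genes. GAS5 and SNHG1 transcripts are known substrates of nonsense-mediated decay. Of 14 decay factors, 4 were called lower in Sen(IR), a share near the 22.4% of all genes, among them MAGOH (-1.05), EIF4A3 (-0.79) and CASC3 (-0.70). SMG6 alone was called higher (0.56), beside 24.8% of all genes. With UK5099 against Sen(IR), 0 of the 14 were called, beside the same 8.76% and 12.1%. Among 22 other snoRNA hosts, 8 were called lower, beside 22.4% of all genes, led by SNHG3 (-1.82), DANCR (-1.78) and SNHG17 (-1.39). A further 4 were called higher, beside 24.8% of all genes, among them SNHG8 (0.84), SNHG9 (0.82) and SNHG32 (0.76). With UK5099, SNHG12 was called higher (0.55) and SNHG19 (-0.73), SNHG10 (-0.67) and SNHG17 (-0.55) lower, 1 and 3 of the 22 beside 8.76% and 12.1% of all genes. With CTPI2, none of the genes in these 4 lists was called against Sen(IR), where 0.0185% of all genes were called higher and 0.148% lower.

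Of the p53-linked RNAs, PURPL rose from 0.371 to 4.67 CPM (3.61) and TP53TG1 from 8.64 to 12.4 CPM (0.52) in Sen(IR), 2 called of 3 tested beside 24.8% of all genes. With UK5099 against Sen(IR), 0 of the 3 were called, beside 8.76% higher and 12.1% lower of all genes. Of 11 other long noncoding RNAs named for abundance or senescence, NORAD was the only one called higher in Sen(IR), beside 24.8% of all genes, from 442 ± 18.8 to 933 ± 3.62 CPM (1.08). DNM3OS (-1.77) and FENDRR (-0.54) were called lower, beside 22.4%. With UK5099, NORAD differed from Sen(IR) by -0.04 (adjusted p = 0.509), OIP5-AS1 (0.72) and FTX (0.67) were called higher, and 4 were called lower, beside 8.76% and 12.1% of all genes, led by LINC00473 (-2.41), DNM3OS (-1.50) and FENDRR (-0.68). LINC00473 was under 1 CPM in all groups.

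**Figure D4:**
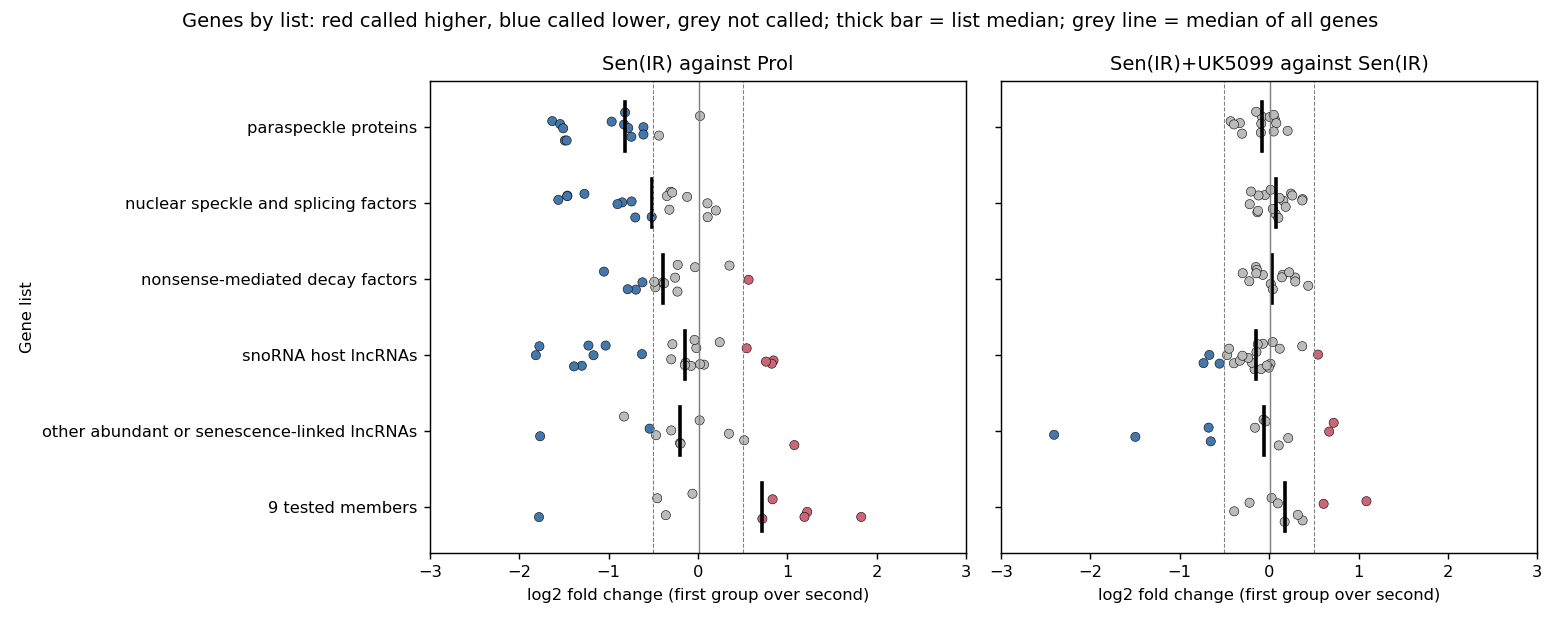
Log2 fold change (horizontal axis) of the tested genes of 5 lists and of the 9 tested members (vertical axis), for Sen(IR) against Prol (left) and Sen(IR)+UK5099 against Sen(IR) (right), with red for genes called higher, blue for lower, grey for not called and a thick bar at each median. Paraspeckle proteins sit at a median of -0.82 on the left and -0.08 on the right, while the members sit at 0.72 and 0.17.

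The nearest protein-coding genes gave mixed values. FRMD8, 9248 bases from NEAT1, differed by -0.15 in Sen(IR) and by -0.41 with UK5099 against Sen(IR), neither past the fold limit. SLC3A2, which lies 50 bases from SNHG1 and encodes an amino acid transporter subunit, was -0.27 in Sen(IR), under the limit, and was called higher with UK5099 (0.75, adjusted p = 1.54e-10). TLCD2, 1069 bases from MIR22HG, was called higher in Sen(IR) (0.54) and again with UK5099 (1.10). MKLN1, overlapping LINC-PINT, differed by -0.02, and DLK1 and RTL1 beside MEG3 were too low to test. In the imprinted clusters of H19 and MEG3, 2 of 7 tested genes were called higher in Sen(IR), SLC22A18 (1.64) and KCNQ1OT1 (1.16), and 2 lower, IGF2 and PHLDA2 (-0.90), shares near the 24.8% and 22.4% of all genes. With UK5099, CDKN1C (0.61) and MEG9 (0.60) were called higher and IGF2 (-1.25), PHLDA2 (-0.58) and KCNQ1OT1 (-0.54) lower, 2 and 3 of the 7 beside 8.76% and 12.1% of all genes.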

How the data were processed

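RNA of 12 MRC5 libraries, 3 per group, was sequenced with paired reads of 150 bases. The authors used Trimmomatic 0.36 for trimming, STAR 2.5.2b for alignment to GRCh38, and featureCounts (Subread 1.5.2) to count unique reads in exons. The deposited values are these raw counts, without normalization. RNA selection, strand use in counting and the annotation release are not given in the sources used here. A single edgeR 4.0.16 fit (R 4.3.3) held all 12 libraries, with filterByExpr, TMM, glmQLFit and glmQLFTest and no replicate term. Standard errors were derived as |log2 fold change| over the square root of F, and intervals are 95%. Positions and exon lengths came from GENCODE v44 by Ensembl identifier.

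All 10 members are named. From each gene list, counts and up to 3 called genes with the largest change per direction, in Sen(IR) against Prol and in UK5099 against Sen(IR), are named, with the nearest protein-coding genes, imprinted cluster genes and the 2 genes of mean log2 CPM over 1 with the highest correlation. NONO, SFPQ and PSPC1 were named after their values were seen. Members and lists were chosen with earlier results of these data known. Of 144 listed genes, 140 were found. The test was checked on simulated data. Alternatives were DESeq2 1.42.0, other scalings, no low-count filter, only the compared groups, a replicate block, other limits and each library left out. Some genes that this rule would name are not reported here. Other assays of the study were not analysed here.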

Additional observations from a re-analysis of the deposited data

How the results depend on the processing

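Of 540 values of single members under 10 other settings, 528 kept their direction and side of the limits, 9 lost a call and 3 changed sign. The settings with an unadjusted p or a fold limit of 1 reuse the main fit, so no direction could change there. All lost calls came at the fold limit of 1, apart from MIR31HG in Sen(IR) against Prol without the low-count filter. At an absolute log2 fold change over 1, 1 member was called for UK5099 against Sen(IR) in place of 2, and 1 for UK5099 against CTPI2 in place of 4. Upper-quartile scaling, which moved the median of all genes by 0.12 in Sen(IR), 0.14 in UK5099 and 0.11 in CTPI2 against Prol, turned values that were not called: PVT1 in Sen(IR) against Prol to 0.0574, GAS5 in CTPI2 against Sen(IR) to -0.001 and GAS5 in UK5099 against Prol to 0.0031. Library totals alone moved the median by 0.13 in UK5099 against Prol. The causes were not tested.

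With each library left out in turn, members called ran from 5 to 7 in Sen(IR) against Prol, stayed at 2 in UK5099 against Sen(IR) and at 0 in CTPI2 against Sen(IR), and ran from 3 to 4 in UK5099 against CTPI2, from 5 to 7 in UK5099 against Prol and from 6 to 7 in CTPI2 against Prol. Of 648 single values, 7 changed sign, none of them called. PVT1 ran from -0.17 to 0.0139 in Sen(IR) against Prol and MIR31HG from -0.15 to 0.21 in UK5099 against Sen(IR). In CTPI2 against Sen(IR), NEAT1 ran from -0.35 to 0.0363, MIR22HG from -0.19 to 0.0045, GAS5 from -0.0138 to 0.0287 and LINC-PINT from -0.16 to 0.0055.

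Same-numbered libraries of different groups did not deviate together (r from -0.05 to 0.04, against -0.06 to 0.10 for different numbers), so the numbers were not taken as pairs. With a replicate block the members called were 6, 2, 0, 4, 6 and 6 in Sen(IR) against Prol, UK5099 against Sen(IR), CTPI2 against Sen(IR), UK5099 against CTPI2, UK5099 against Prol and CTPI2 against Prol, as without it. Calls over all genes went from 7677 to 7649 in Sen(IR) against Prol and from 3386 to 3360 in UK5099 against Sen(IR). Depth limits MIR31HG, at 14 to 34 counts a library, and H19, at 0 to 2.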

Other observations

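Other long noncoding hosts of microRNAs included RNAs near the counting floor in some groups and well above it in others. MIR3142HG, the host of miR-146a, a microRNA induced by NF-kB signalling, had 0, 0 and 1 counts in Prol, 93, 76 and 72 in Sen(IR), 50, 34 and 26 with CTPI2 and 0, 0 and 0 with UK5099. All Sen(IR) libraries were above all CTPI2 libraries, and the UK5099 libraries held no count. Its level in Sen(IR) was at least 32.1-fold higher than with UK5099, taking 3 counts per library as the floor. CTPI2 against Sen(IR) gave -1.26 ± 0.263 on the log2 scale (SE, edgeR adjusted p = 0.0345). It was the only call among the 15 tested hosts of that comparison, beside 0.148% of all genes called lower and 0.0185% higher. MIR210HG, the host of the hypoxia-induced miR-210, was at 0.298, 0.386 and 0.409 CPM in Prol and at 4.05, 3.32 and 3.14 CPM in Sen(IR). With UK5099 it was at 0.620, 0.371 and 0.194 CPM and with CTPI2 at 2.54, 2.47 and 1.47 CPM. It rose by 3.24 in Sen(IR) (adjusted p = 8.22e-09) and fell by 3.15 with UK5099 (adjusted p = 3.52e-08). Mature sequences from RefSeq (GRCh38.p14) are shown with the seed, bases 2 to 8, in capitals. The mature forms were not measured.
hsa-miR-146a-5p: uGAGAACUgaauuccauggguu
hsa-miR-210-3p: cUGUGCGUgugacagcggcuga
hsa-miR-155-5p: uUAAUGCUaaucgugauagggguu

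Other hosts were lower in senescence. MIR155HG, the host of miR-155, had 24, 24 and 38 counts in Prol, 10, 3 and 2 in Sen(IR), 1, 1 and 3 with CTPI2 and 0, 0 and 0 with UK5099. CARMN, the host of miR-143 and miR-145 and a smooth-muscle-associated RNA, had 158, 154 and 196 counts in Prol and 10, 8 and 7 in Sen(IR), a fall of 4.12 on the log2 scale, and 0, 1 and 0 with UK5099. MIR17HG, the host of the miR-17 to miR-92a cluster, fell by 2.82. In Sen(IR) against Prol, 5 of the 15 tested hosts were called higher and 6 lower, beside 24.8% and 22.4% of all genes. With UK5099 against Sen(IR), 1 was called higher, MIR193BHG (1.39), and 5 lower, beside 8.76% and 12.1%.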
